A study of Mus musculus with 20 samples.

Results

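The expression of 9 genes of triglyceride handling and mitochondrial fuel choice was followed in mouse islets: Angptl4, Angptl8, Lpl, Plin2, Plin4, Plin5, Pdk4, Cpt1a and Ucp2. They were chosen by name, as angiopoietin-like and peroxisome proliferator-activated receptor (PPAR)-driven lipid genes, and are 9 of the 28632 genes in the count table. All 9 were found there by Ensembl ID and were read in all 20 libraries, with no filter on low counts.

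The libraries came from islets of 12-week-old mice, controls and mice with β-cell deletion of the mitofusins Mfn1, Mfn2 or both, the outer-membrane proteins that fuse mitochondria. Ctrl had 6 libraries (3 female, 3 male). β-Mfn1KO (Mfn1 loxP/loxP with Ins1-Cre) had 4 (3 female, 1 male), β-Mfn2KO (Mfn2 loxP/loxP with Ins1-Cre) had 5 (2 female, 3 male), and β-Mfn1/2DKO, with both floxed genes and Ins1-Cre, had 5 (2 female, 3 male). The labels name the controls wild type, whereas the study's methods pooled Ins1-Cre mice without floxed alleles and floxed mice without Cre, so it is not known here which Ctrl library carried Cre. Cre was knocked into the insulin locus Ins1, which directs deletion to β-cells, and the other cells of the islet add their own Mfn1 and Mfn2 RNA. All islets were kept in culture for a day before RNA was taken. The labels do not tie each library to its own mouse, and p-values measure only the spread between these libraries.

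Angptl4 and Angptl8 are secreted proteins that restrain lipoprotein lipase, the product of Lpl, which frees fatty acids from circulating triglyceride. Perilipins (Plin2, Plin4, Plin5) coat the lipid droplets in which cells store triglyceride. Pdk4 switches off pyruvate dehydrogenase, Cpt1a commits long-chain fatty acids to import into mitochondria, and Ucp2 is a carrier of the mitochondrial inner membrane. Many of these genes are textbook targets of PPARs, nuclear receptors that fatty acids activate.

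The targeted genes followed the labels. Mfn1 ranged from 1518 to 1807 normalized counts in Ctrl, from 621 to 770 in β-Mfn1KO and from 687 to 1062 in β-Mfn1/2DKO, and Mfn2 from 3089 to 4373 in Ctrl, 1474 to 1688 in β-Mfn2KO and 2022 to 2131 in β-Mfn1/2DKO. Normalized counts are gene counts put on the scale of the mean library with edgeR's TMM factors. Depth was unequal: total counts were 12400687 to 20329064 in Ctrl, 15745680 to 16685381 in β-Mfn1KO, 15110046 to 18919122 in β-Mfn2KO replicates 1 to 3, 55962873 and 59533407 in β-Mfn2KO replicates 4 and 5, and 65533388 to 122947313 in β-Mfn1/2DKO. Every β-Mfn1/2DKO library was deeper than every Ctrl library, so depth and the double knockout cannot be told apart against Ctrl. β-Mfn1/2DKO replicates 4 and 5 also stood apart by acinar RNA, with acinar scores (mean log2 CPM, counts scaled to a common library total, of 8 exocrine markers) of 10.44 and 11.87, against 5.06 to 6.01 in replicates 1 to 3 and 4.46 to 7.25 in Ctrl. β-cell markers defined the tissue in all libraries, but the summed level of 8 of them fell from between 144155 and 231776 CPM in Ctrl to between 63675 and 86621 CPM in β-Mfn1/2DKO. Ins1, the locus that holds Cre, is among these 8 and was the only 1 called lower in β-Mfn1KO (log2 -0.82) and β-Mfn2KO (-0.94). In β-Mfn1/2DKO it was at -2.60 and Ins2 at -1.09. The part of the Cre allele in the summed level was not tested. In bulk RNA, fewer cells of a type and less RNA per cell cannot be told apart.

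In β-Mfn1/2DKO islets 4 of the 9 genes were called higher than in Ctrl: Angptl4, Angptl8, Plin2 and Cpt1a. The rule for a call was a fold of more than 1.5 together with an adjusted p below 0.05, from the quasi-likelihood test of edgeR with the Benjamini-Hochberg procedure across all genes. Of all 28632 genes, 5.21% were called in this comparison, 3.24% higher and 1.97% lower. The study had already reported increases of Angptl4 and Angptl8 in these islets from the same data. The 9 genes were chosen with that known, so the count of 4 is not independent of that report. Pdk4 and Ucp2 also had an adjusted p under 0.05 with smaller fold changes, which 9.59% of all genes had upward and 6.86% downward, and none of the 9 was lower by either criterion. For 5 of the 9 every β-Mfn1/2DKO library was above every Ctrl library, as for 6.56% of all genes. The median log2 fold change of the 9 was 0.68, beside 0.06 for all genes. In neither single knockout was any of the 9 called.

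**Figure D1:**
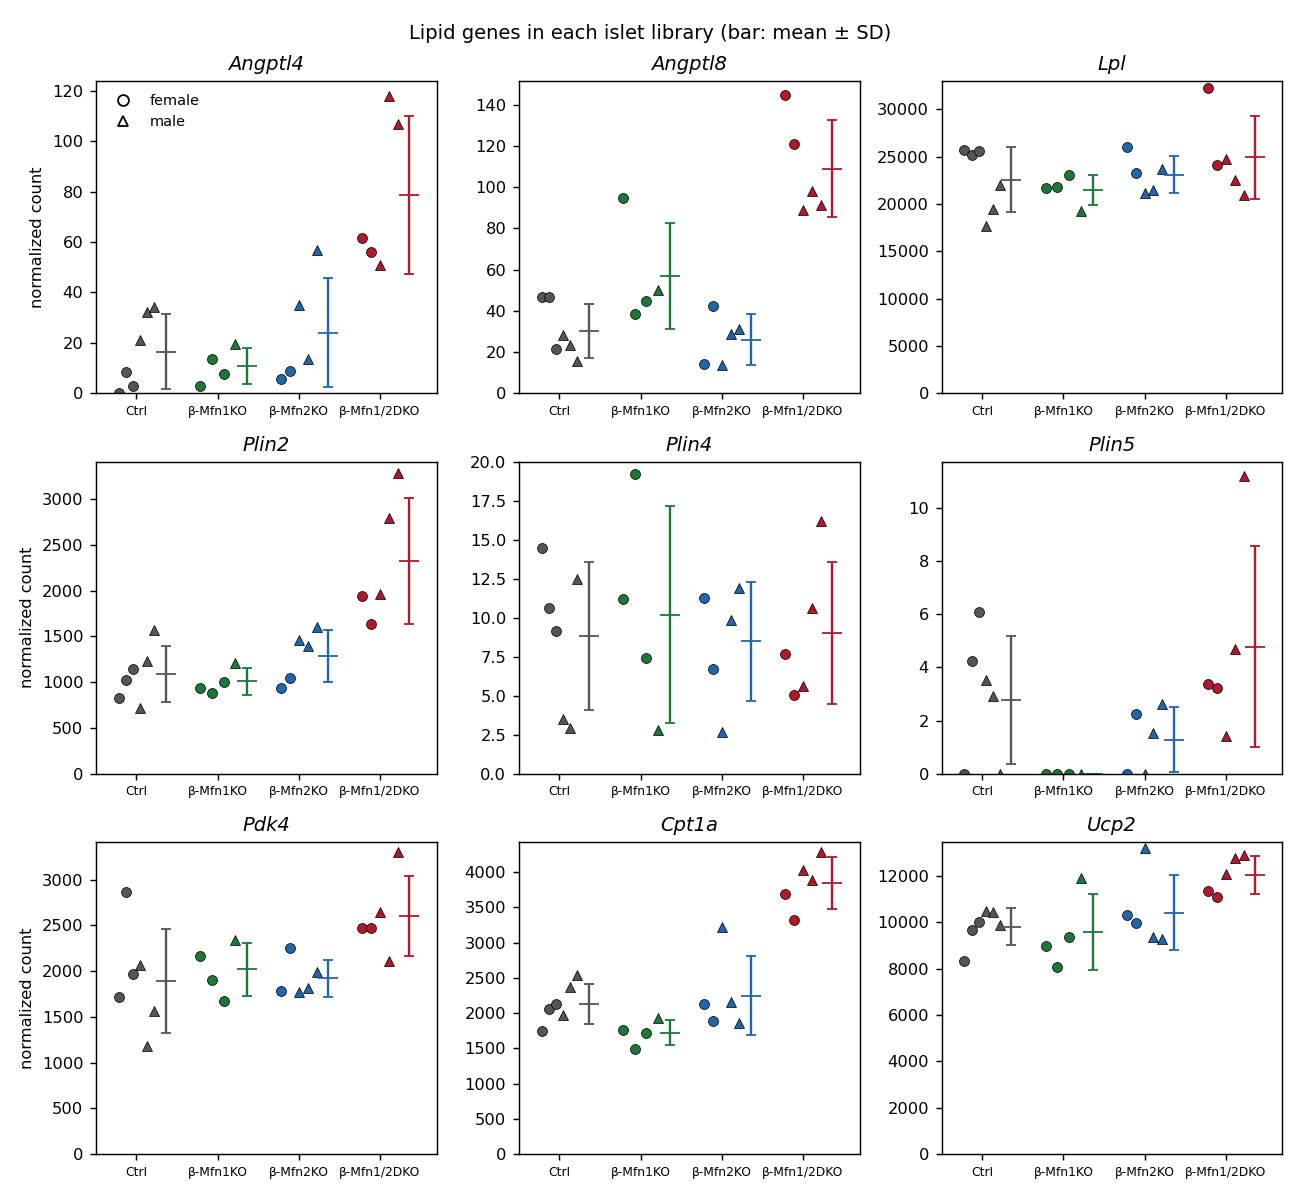
Normalized counts (y axis, linear from 0) of each gene in every library of the 4 genotypes (x axis), with circles for female and triangles for male libraries and a bar for the mean ± SD. Angptl4, Angptl8, Plin2, Cpt1a and Ucp2 are higher in all 5 β-Mfn1/2DKO libraries than in any Ctrl library, while Plin4 and Plin5 stay under 20 normalized counts throughout.

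The 9 genes spanned a wide range of abundance. In CPM per kilobase of exon, Ctrl levels ran from 52.0 ± 7.97 for Lpl (SD, n = 6) and 33.9 ± 2.76 for Ucp2 down to 0.0370 ± 0.0198 for Plin4 and 0.0323 ± 0.0279 for Plin5. Pdk4 (13.0 ± 3.92), Plin2 (7.47 ± 2.09) and Cpt1a (6.74 ± 0.901) lay between, followed by Angptl8 (0.843 ± 0.370) and Angptl4 (0.112 ± 0.101). On the same scale Plin2 and Cpt1a differed by less than the spread of Plin2, as did Plin4 and Plin5 by less than theirs. In β-Mfn1/2DKO the level of Plin2 (16.0 ± 4.72, n = 5) came near that of Pdk4 (17.9 ± 3.01), and Angptl8 reached 3.04 ± 0.658 and Angptl4 0.536 ± 0.213.

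Angptl4 had the largest fold change against Ctrl of the 9 genes. The gene (ENSMUSG00000002289) lies on the reverse strand of chr17:33773750-33781830 of GRCm38 and has 7 merged exons. Ctrl libraries held a lowest value of 0, a median of 14.8 and a highest of 34.2 normalized counts. The 5 β-Mfn1/2DKO libraries held 61.5, 56.2, 50.8, 118 and 107. The groups did not overlap, with a log2 fold change of 2.28 ± 0.57 (SE), or 4.85-fold (95% interval 2.13 to 11.1; edgeR adjusted p = 0.0074). Ctrl and β-Mfn1KO values rest on 0 to 11 reads a library, against 122 to 300 reads in β-Mfn1/2DKO. When all libraries were drawn down to the total of the smallest, 0 to 11 reads remained in Ctrl and 18 to 41 in β-Mfn1/2DKO.

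In the single knockouts Angptl4 stayed within the Ctrl range or crossed its upper end. β-Mfn1KO libraries held 2.79, 13.7, 7.45 and 19.4 normalized counts. β-Mfn2KO libraries held 5.64, 8.93, 35.0, 13.6 and 56.8, so that replicate 5 was above 2 of the 5 β-Mfn1/2DKO libraries. β-Mfn1/2DKO exceeded β-Mfn2KO by 1.61 ± 0.54 on the log2 scale, which was not called (edgeR adjusted p = 0.053). Without β-Mfn2KO replicate 5, a library rich in macrophage RNA (Lyz2 at 26334 normalized counts against 561 to 1429 in the rest of its group), it was 2.36 (edgeR adjusted p = 0.0065). Of all libraries left out singly 5 brought it past the threshold, as did 8 of the 16 other alternatives, with values from 1.14 to 2.98 over those 16. Against β-Mfn1KO it was 2.85 ± 0.70 (edgeR adjusted p = 0.0058).

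Angptl4 values in Ctrl were split by sex. The 3 male Ctrl libraries held 21.0, 32.1 and 34.2 normalized counts and the 3 female ones 0, 8.46 and 3.04, with no overlap. This difference of 2.74 on the log2 scale did not pass the adjustment over all genes (edgeR adjusted p = 0.52). The female Ctrl values rest on 0, 4 and 1 reads, so fold changes that use them are set near the floor. In β-Mfn2KO the males (35.0, 13.6 and 56.8) were also above the females (5.64 and 8.93), whereas in β-Mfn1/2DKO the sexes overlapped. Within females β-Mfn1/2DKO exceeded Ctrl by 3.75 on the log2 scale, and within males by 1.66 (edgeR adjusted p = 0.08). The difference between the sexes was -2.11 (edgeR adjusted p = 0.97), and no gene of the table was called for it.

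Angptl8 was higher in β-Mfn1/2DKO than in Ctrl and β-Mfn2KO, and its call against β-Mfn1KO was borderline. The gene (ENSMUSG00000047822, chr9:21835510-21837347, forward strand, 4 exons) sits inside Dock6, which is read from the other strand. Whether counting used strand is not given in the sources used here, and Dock6 had a mean of 1488.1 counts against 82.3 for Angptl8, but the genes share 0 exonic bases. Dock6 differed from Ctrl by 0.18 on the log2 scale in β-Mfn1/2DKO (edgeR adjusted p = 0.1), and β-Mfn1/2DKO exceeded β-Mfn2KO and β-Mfn1KO in it by 0.33 and 0.41 (adjusted p = 0.0059 and 0.0012). The promoter of Angptl8 is printed because it is a called gene and holds, in capitals, the 8 letters TGATGCAA, a match to TGATGNAA, the form of a site of the stress factors Atf4 and Chop. The sequence is from RefSeq on GRCm38.p6, chr9:21835260-21835559, forward strand, from 250 bases before the start of the transcript to 50 after it.
Angptl8 promoter: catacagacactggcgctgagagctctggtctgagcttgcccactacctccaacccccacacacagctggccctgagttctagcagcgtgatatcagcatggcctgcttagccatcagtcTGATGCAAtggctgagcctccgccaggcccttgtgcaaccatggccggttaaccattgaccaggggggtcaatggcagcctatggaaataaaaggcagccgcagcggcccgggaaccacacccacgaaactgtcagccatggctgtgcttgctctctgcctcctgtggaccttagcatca
The match lies at chr9:21835380-21835387, 130 bases before the start. Both strands were searched, the motif was picked after the promoters had been read, and 3.97% of 32851 promoter windows of the same length hold it, so the match is only a description.

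Angptl8 stood at 15.6, 25.7 and 46.5 normalized counts in Ctrl (lowest, median and highest) and at 145, 121, 88.9, 98.4 and 91.6 in the double knockout. The groups did not overlap, with a log2 fold change of 1.82 ± 0.31, or 3.54-fold (2.28 to 5.48; edgeR adjusted p = 1.9e-04). The β-Mfn2KO libraries, at 14.1, 42.4, 13.5, 28.8 and 31.0, stayed within or just under the Ctrl range. β-Mfn1/2DKO exceeded them by 2.01 ± 0.31 on the log2 scale (edgeR adjusted p = 1.2e-04). Drawn down to equal totals, Ctrl held 4 to 13 reads and β-Mfn1/2DKO 31 to 40.

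Angptl8 was less clearly apart from β-Mfn1KO. Its libraries held 94.9, 38.5, 44.7 and 49.9 normalized counts, and replicate 1 alone was above the lowest β-Mfn1/2DKO values. β-Mfn1KO against Ctrl differed by 0.89 ± 0.35 on the log2 scale, which did not pass the adjustment (edgeR adjusted p = 0.62). β-Mfn1/2DKO against β-Mfn1KO differed by 0.94 ± 0.33 (edgeR adjusted p = 0.052), and by 1.29 (adjusted p = 0.015) without β-Mfn1KO replicate 1. Of the single libraries left out in turn, 9 brought this difference of Angptl8 past the threshold.

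Lpl, the enzyme that both angiopoietin-like proteins restrain, was the most abundant of the 9 and was not called in any comparison. The gene (ENSMUSG00000015568) lies on the forward strand at chr8:68880491-68907448. Ctrl held 17613, 23554 and 25670 normalized counts as lowest, median and highest, and β-Mfn1/2DKO 32252, 24128, 24736, 22552 and 20909. The groups overlapped, with a fold change of 1.10 (95% interval 0.947 to 1.29; log2 0.14 ± 0.11, edgeR adjusted p = 0.44). Means were 21476 ± 1600 in β-Mfn1KO (SD, n = 4) and 23100 ± 1969 in β-Mfn2KO (n = 5), inside the Ctrl range. Within Ctrl the 3 female libraries (25157 to 25670) were above the 3 male ones (17613 to 21951), a male minus female difference of -0.37 on the log2 scale that did not pass the adjustment (edgeR adjusted p = 0.52).

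Plin2, the perilipin found on droplets in most cells, was the only one of the 3 perilipins with enough RNA to compare. The gene (ENSMUSG00000028494) is on the reverse strand at chr4:86648386-86670060. Its promoter is printed for 1 copy of the hexamer that PPAR elements repeat (AGGTCA, here TGACCT on the printed strand) and an E-box (CACGTG), both in capitals. The sequence is from RefSeq on GRCm38.p6, chr4:86670010-86670309, reverse strand.
Plin2 promoter: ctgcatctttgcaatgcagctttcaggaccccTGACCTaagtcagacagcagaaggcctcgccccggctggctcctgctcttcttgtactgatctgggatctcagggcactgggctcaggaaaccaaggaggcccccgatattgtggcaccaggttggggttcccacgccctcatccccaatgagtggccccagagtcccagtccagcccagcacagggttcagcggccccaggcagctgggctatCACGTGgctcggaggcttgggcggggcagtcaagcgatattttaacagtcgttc
The hexamer starts 218 bases before the transcript and is found in 16.26% of all promoter windows, and the E-box starts 4 bases before it and is found in 7.15%. The E-box was picked after the promoters had been read.

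Plin2 levels were 719, 1084 and 1569 normalized counts in Ctrl (lowest, median and highest) and 1942, 1637, 1966, 2793 and 3281 in the double knockout. The groups did not overlap, and Plin2 was 2.14-fold higher (1.64 to 2.79; log2 1.10 ± 0.19, edgeR adjusted p = 2.1e-04). β-Mfn1KO libraries held 938, 883, 1001 and 1209, and β-Mfn2KO libraries 934, 1045, 1464, 1390 and 1604. The double knockout was above all of these in every library as well, by 1.20 ± 0.21 against β-Mfn1KO (edgeR adjusted p = 2.7e-04) and 0.84 ± 0.19 against β-Mfn2KO (adjusted p = 0.0043) on the log2 scale. The smallest gap was that between β-Mfn1/2DKO replicate 2 at 1637 and β-Mfn2KO replicate 5 at 1604. The highest Plin2 values were those of β-Mfn1/2DKO replicates 4 and 5, the libraries rich in acinar RNA. Without them the log2 fold change was 0.79 against Ctrl (edgeR adjusted p = 0.0039) and 0.53 against β-Mfn2KO (adjusted p = 0.073), so that the call against β-Mfn2KO rests on them.

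Plin4 and Plin5, droplet coats of fat and of oxidative tissues, were near the limit of detection. Plin4 (ENSMUSG00000002831, chr17:56100591-56109803) had 1 to 5 reads in Ctrl, 1 to 7 in β-Mfn1KO, 1 to 18 in β-Mfn2KO and 11 to 27 in the deeper β-Mfn1/2DKO libraries. Scaled for depth the means were 8.85 ± 4.74, 10.2 ± 6.96, 8.48 ± 3.81 and 9.04 ± 4.55 normalized counts, which overlapped in all groups. Hdgfl2, which had far more counts, shares 17 exonic bases with Plin4 on the other strand, so that without strand their reads there cannot be told apart, and it differed by 0.05 on the log2 scale (edgeR adjusted p = 0.63). Plin5 (ENSMUSG00000011305, chr17:56111601-56117596) had 0 to 2 reads in Ctrl, 0 in all 4 β-Mfn1KO libraries, 0 to 4 in β-Mfn2KO and 11, 7, 4, 12 and 18 in β-Mfn1/2DKO. Against Ctrl no change of Plin5 was detectable at this depth (log2 0.68 ± 0.72, edgeR adjusted p = 0.61). Against β-Mfn1KO Plin5 met the call rule (edgeR adjusted p = 0.028). The 3 reads that a count of 0 over the group allows come to 2.02 normalized counts, beside 4.19 for the pooled β-Mfn1/2DKO reads. That ratio of 2.07 makes no allowance for the spread of β-Mfn1/2DKO (1.41 to 11.2), so it is not a lower bound. Drawn down to equal totals, 3 of the 5 β-Mfn1/2DKO libraries also held 0 reads.

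Cpt1a, which governs the entry of long-chain fatty acids into mitochondria, was called in β-Mfn1/2DKO against Ctrl under every alternative tried, single libraries left out included. The gene (ENSMUSG00000024900) lies on the forward strand at chr19:3322334-3385733 and has 22 merged exons. Its promoter holds the same hexamer (as TGACCT), in capitals, 94 bases before the start of the transcript. The sequence is from RefSeq on GRCm38.p6, chr19:3323051-3323350, forward strand.
Cpt1a promoter: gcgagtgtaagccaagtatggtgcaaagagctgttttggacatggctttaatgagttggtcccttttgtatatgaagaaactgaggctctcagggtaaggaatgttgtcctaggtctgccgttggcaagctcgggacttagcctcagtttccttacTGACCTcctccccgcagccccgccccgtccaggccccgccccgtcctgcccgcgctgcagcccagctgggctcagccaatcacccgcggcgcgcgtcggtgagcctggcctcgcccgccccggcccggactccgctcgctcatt
Of the 9 genes 7 had a promoter window in the RefSeq table, and those of Angptl4 and Lpl were not used here. Neither a full PPAR element (AGGTCA repeated after 1 base, on either strand) nor one with a single mismatch occurred in any of the 7, and 0.04% and 0.55% of all windows hold them. The hexamer occurred in 3 of the 7 (Plin2, Plin5 and Cpt1a). A window of this size says nothing of elements in introns or farther away.

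Cpt1a stood at 1742, 2091 and 2537 normalized counts in Ctrl (lowest, median and highest) and at 3690, 3319, 4026, 3886 and 4286 in β-Mfn1/2DKO. The lowest β-Mfn1/2DKO library was above every library of every other genotype. The increase over Ctrl was 1.80-fold (1.52 to 2.13; log2 0.85 ± 0.12, edgeR adjusted p = 1.7e-05). β-Mfn1KO libraries held 1764, 1490, 1714 and 1924, a log2 difference from Ctrl of -0.31 ± 0.13 that did not pass the adjustment (edgeR adjusted p = 0.63). β-Mfn2KO libraries held 2124, 1881, 3214, 2156 and 1866, with replicate 3 far above the rest. Against β-Mfn1KO and β-Mfn2KO, β-Mfn1/2DKO was higher by 1.16 ± 0.13 and 0.78 ± 0.12 on the log2 scale (edgeR adjusted p = 2.2e-06 and 1.2e-04).

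Pdk4, the kinase that blocks entry of pyruvate carbon into the citrate cycle, was higher in β-Mfn1/2DKO by a small margin. Ctrl libraries spanned 1183, 1841 and 2864 normalized counts (lowest, median and highest), with replicate 2 at the top. β-Mfn1/2DKO held 2468, 2469, 2645, 2115 and 3304, so the groups overlapped. The log2 fold change was 0.45 ± 0.15 (edgeR adjusted p = 0.041), under the 1.5-fold limit, and was not past the threshold against β-Mfn2KO (0.44 ± 0.16, adjusted p = 0.07) or β-Mfn1KO (adjusted p = 0.16). Leaving out any of 7 single libraries took its adjusted p against Ctrl to 0.05 or above: Ctrl replicates 1, 3, 4, 5 and 6 and β-Mfn1/2DKO replicates 3 and 5. Without Ctrl replicate 2 the log2 fold change was 0.61 and Pdk4 was called. The gene (ENSMUSG00000019577) is on the reverse strand at chr6:5483351-5496309.

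Ucp2 was 1.23-fold higher in β-Mfn1/2DKO than in Ctrl (1.07 to 1.41; log2 0.30 ± 0.09, edgeR adjusted p = 0.034). The 6 Ctrl libraries ranged from 8318 to 10489 normalized counts with a median of 9950. Those of β-Mfn1/2DKO, at 11357, 11095, 12079, 12774 and 12887, were all above them. β-Mfn1KO replicate 4 at 11898 and β-Mfn2KO replicate 3 at 13196 lay among the β-Mfn1/2DKO values. Against β-Mfn2KO the difference was 0.21 ± 0.10 (edgeR adjusted p = 0.18) and against β-Mfn1KO 0.33 ± 0.11 (adjusted p = 0.032). Leaving out Ctrl replicate 1 or 2 or β-Mfn1/2DKO replicate 4 or 5 took the adjusted p against Ctrl above 0.05, and with the authors' normalization factors the log2 fold change was 0.09. The gene (ENSMUSG00000033685, chr7:100493337-100502020, forward strand) overlaps Dnajb13 on the other strand, which had 0.225% as many counts.

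**Figure D2:**
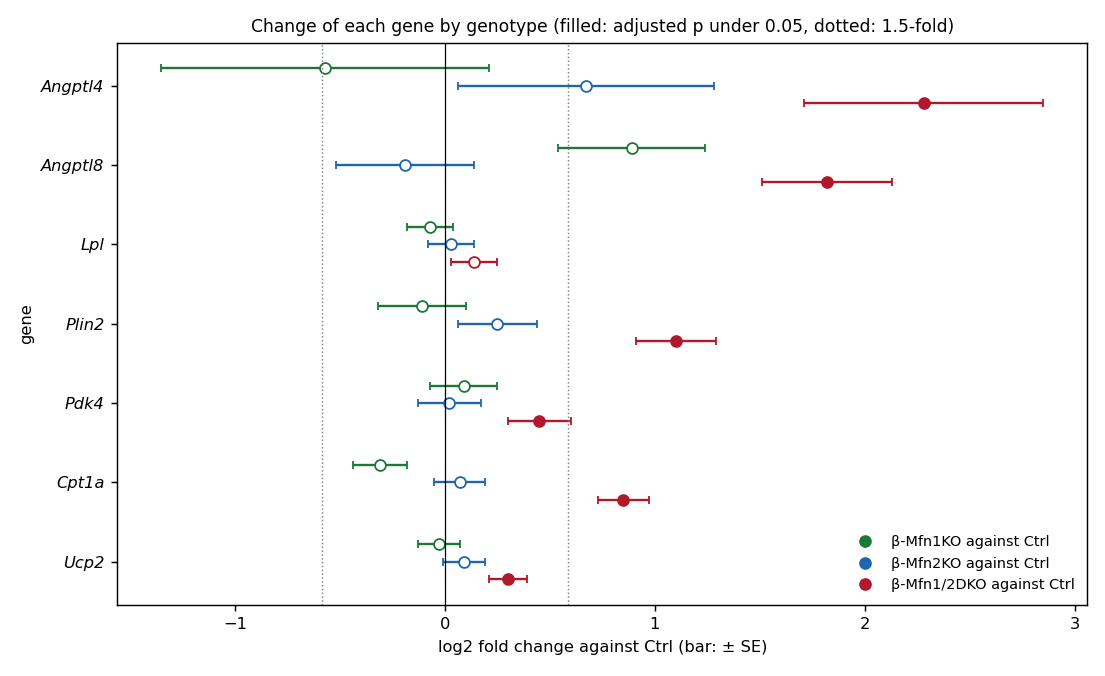
Log2 fold change against Ctrl (x axis, ± SE) of 7 of the genes (y axis) in each knockout, filled where the edgeR adjusted p was under 0.05, with dotted lines at 1.5-fold. Only β-Mfn1/2DKO has filled points, at 2.28 for Angptl4, 1.82 for Angptl8, 1.10 for Plin2, 0.85 for Cpt1a, 0.45 for Pdk4 and 0.30 for Ucp2, and Plin4 and Plin5 are left out because of their few reads.

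The design also asks whether losing Mfn1 matters more once Mfn2 is gone. In each single knockout 0 of the 9 genes were called, where 0.0244% of all genes were called in β-Mfn1KO and 0.0524% in β-Mfn2KO. At an unadjusted p under 0.05 there were 3 in β-Mfn1KO (Angptl8, Plin5 and Cpt1a; 7.44% of all genes) and 0 in β-Mfn2KO (4.22% of all genes), DESeq2 also called 0 in both, and the lowest edgeR adjusted p was 0.62 and 0.93. Against β-Mfn2KO, β-Mfn1/2DKO had 3 genes called higher (Angptl8, Plin2 and Cpt1a; 2.05% of all genes were called higher), and these 3 were above β-Mfn2KO in every library, as were 6.56% of all genes. Against β-Mfn1KO it had 4 called higher (Angptl4, Plin2, Plin5 and Cpt1a; 4.04% of all genes), and these 4 were above β-Mfn1KO in every library, as were 10.8% of all genes. For Plin5 this rests on 0 reads in all 4 β-Mfn1KO libraries beside 4 to 18 in the deeper β-Mfn1/2DKO libraries. Any read there counts as above, so depth alone can separate the groups for Plin5. These comparisons share libraries and are not independent.

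The difference between the effects of losing Mfn1 without and with Mfn2 was tested directly. It passed the call rule for 2 of the 9 genes, beside 2.74% of all genes: Cpt1a, at 1.09 ± 0.18 on the log2 scale (edgeR adjusted p = 7.5e-04), and Plin2, at 0.95 ± 0.28 (adjusted p = 0.048). For Angptl4 the difference was 2.18 ± 0.95 (adjusted p = 0.21) and for Angptl8 1.13 ± 0.47 (adjusted p = 0.18), so unequal effects were not shown for these. The Plin2 value is at the edge of the threshold: it stayed past it only when the library left out was Ctrl replicate 1 or 4, β-Mfn1KO replicate 4, β-Mfn2KO replicate 3 or 5, or β-Mfn1/2DKO replicate 1, 2 or 3, and lost it for each of the other 12.

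Read depth moves with the double knockout, and only β-Mfn2KO holds libraries of both depth classes. With depth class (the 5 β-Mfn1/2DKO libraries and β-Mfn2KO replicates 4 and 5 against the rest) as a term in the fit, estimated from the 5 β-Mfn2KO libraries, Cpt1a was still called against Ctrl (log2 1.11 ± 0.20, edgeR adjusted p = 0.0039). The other 3 were not: Angptl4 1.17 ± 1.03 (adjusted p = 0.68), Angptl8 1.5 ± 0.58 (0.21) and Plin2 0.71 ± 0.33 (0.32). The 2 deep β-Mfn2KO libraries can be set beside β-Mfn1/2DKO directly. They held 28.8 and 31.0 normalized counts of Angptl8 and 2156 and 1866 of Cpt1a, below all 5 β-Mfn1/2DKO libraries. Among these deep libraries alone, β-Mfn1/2DKO exceeded β-Mfn2KO by 1.91 ± 0.27 for Angptl8 (edgeR adjusted p = 0.0057) and 0.98 ± 0.10 for Cpt1a (adjusted p = 0.0015). For Plin2 (0.68 ± 0.25, adjusted p = 0.15) and Angptl4 (1.19 ± 0.56, adjusted p = 0.27) the threshold was not met. Counts drawn down to equal totals gave log2 fold changes against Ctrl of 2.16 for Angptl4, 1.90 for Angptl8, 1.04 for Plin2 and 0.76 for Cpt1a, each with an edgeR adjusted p under 0.05, though this does not remove a batch that came with depth.

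**Figure D3:**
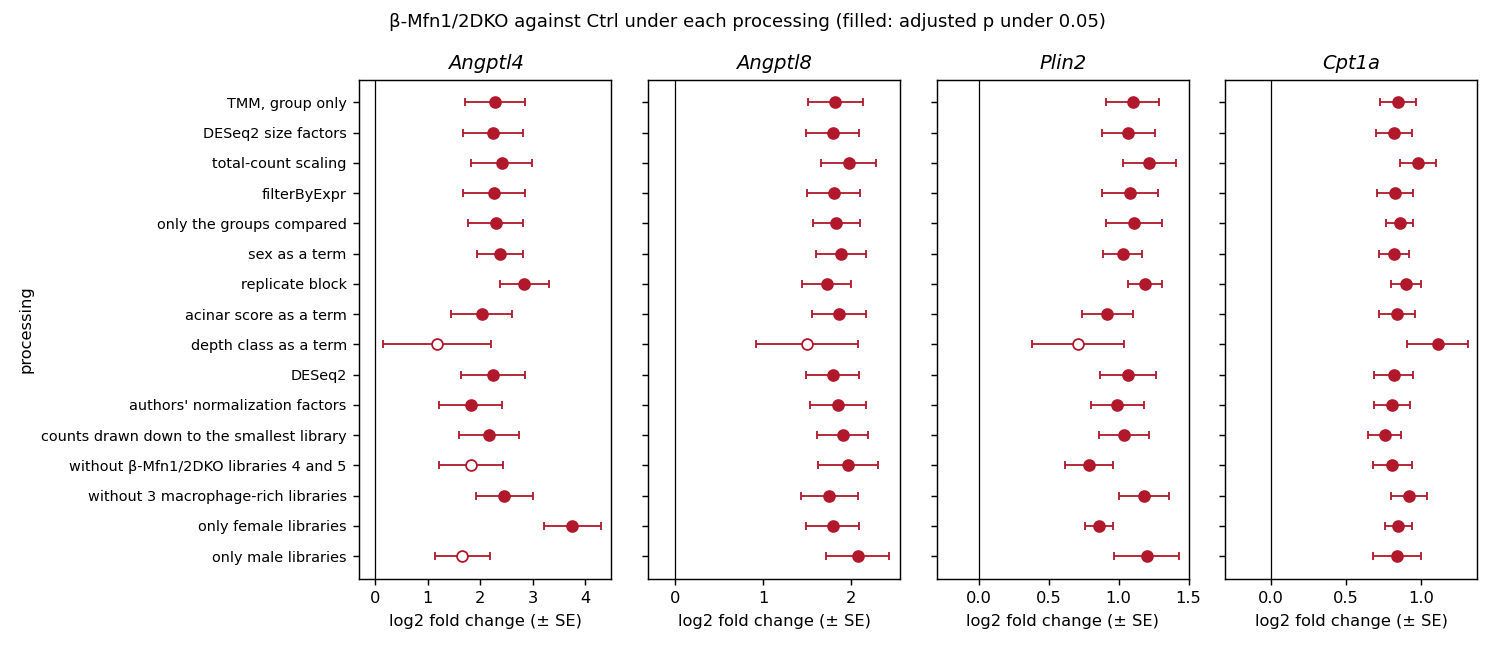
Difference between β-Mfn1/2DKO and Ctrl in log2 units (x axis, ± SE) for the 4 called genes under each way of processing the data (y axis), filled where the adjusted p was under 0.05. All values lie above 0. With depth class as a term Cpt1a alone stays filled, and Angptl4 also loses the threshold in male libraries (1.66) and without β-Mfn1/2DKO replicates 4 and 5 (1.82).

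Acinar RNA moved with Angptl4 and Plin2 among the β-Mfn1/2DKO libraries. Replicates 4 and 5, with the highest acinar scores, had the 2 highest values of both genes, but not of Angptl8, where they lay at 98.4 and 91.6 among the lower values. β-Mfn2KO replicate 4, with an acinar score of 9.22, held 13.6 normalized counts of Angptl4 and 1390 of Plin2, within the range of its group. Without β-Mfn1/2DKO replicates 4 and 5 none of the 8 acinar markers had an adjusted p under 0.05, and 3 of the 9 genes were called against Ctrl: Angptl8 (log2 1.96), Plin2 (0.79) and Cpt1a (0.81). Angptl4 was at 1.82 (edgeR adjusted p = 0.06). With the acinar score as a term in the fit of all libraries, Angptl4 was higher by 2.03 (edgeR adjusted p = 0.018) and Plin2 by 0.92 (adjusted p = 8.0e-04).

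**Figure D4:**
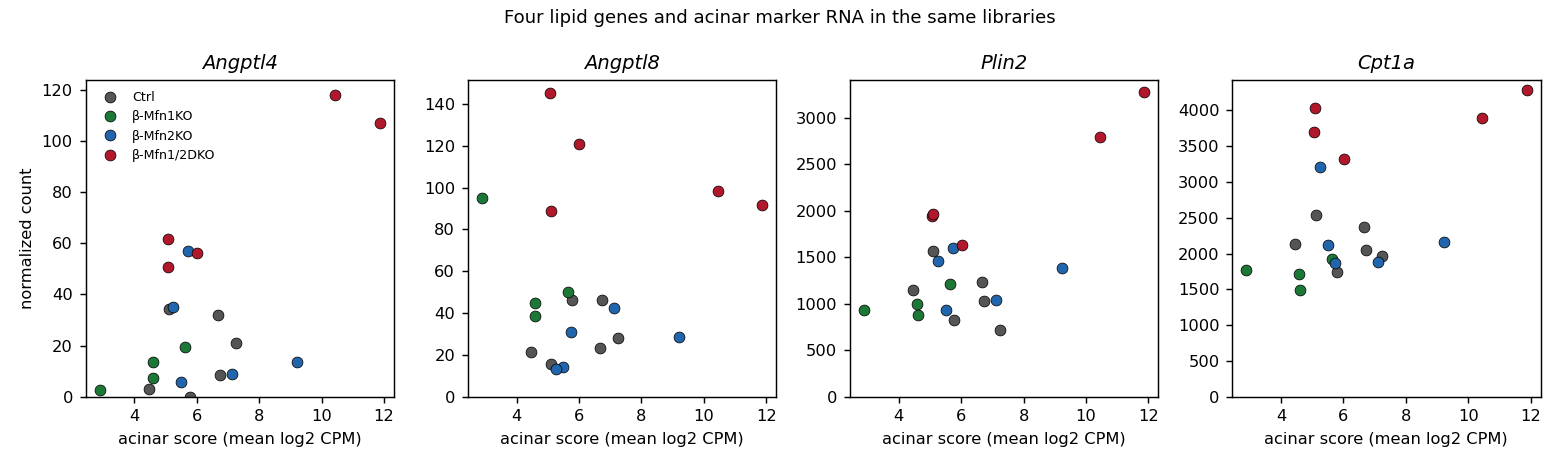
Normalized counts of Angptl4, Angptl8, Plin2 and Cpt1a (y axes) against the acinar score of the same library (x axis, mean log2 CPM of 8 markers), colored by genotype. The β-Mfn1/2DKO libraries at 10.44 and 11.87 are highest for Angptl4 and Plin2 but not for Angptl8, and at scores near 5 to 6 the other 3 β-Mfn1/2DKO libraries are above Ctrl for all 4 genes.

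Other cell types that use these genes were read in the same libraries. The 6 adipocyte markers summed to 2.37 to 8.27 CPM in Ctrl and 2.68 to 11 CPM in β-Mfn1/2DKO, and 0 were called. Nearly all of that was Fabp4, which endothelial cells and macrophages also express, at 94.7 to 333 normalized counts in Ctrl and 107 to 449 in β-Mfn1/2DKO. Cidec had 0 to 23 reads, and the defining markers Adipoq and Plin1 had at most 3 reads in any library. Endothelial markers were higher in β-Mfn1/2DKO: all 7 had an adjusted p under 0.05 and 5 were called, and their summed level was 139 to 211 CPM in Ctrl and 205 to 315 CPM in β-Mfn1/2DKO. The 7 macrophage markers summed to 66.4 to 600 CPM in Ctrl, 65.0 to 101 CPM in β-Mfn1KO, 74.5 to 825 CPM in β-Mfn2KO and 76.4 to 166 CPM in β-Mfn1/2DKO, and 1 had an adjusted p under 0.05 in β-Mfn1/2DKO against Ctrl, downward. The highest Lyz2 of each of these groups but β-Mfn1KO was in a library that stood apart: Ctrl replicate 6 (18202 normalized counts, the others 564 to 1011), β-Mfn2KO replicate 5 (26334) and β-Mfn1/2DKO replicate 4 (4250, the others 710 to 868). β-Mfn1/2DKO replicate 4 was not high across the list. Its C1qa (927 normalized counts) was the lowest of its group, and its Adgre1 (97.2) and C1qb (562) were toward the low end. Its Cd68 (404), Csf1r (349) and Cd14 (280) were toward the high end, and this library is also rich in acinar RNA. The 3 libraries high in Lyz2, named macrophage-rich in this text for that marker, had the highest Angptl4 of their groups, at 34.2, 56.8 and 118. Without these 3 libraries the same 4 genes were called against Ctrl, with Angptl4 at 2.46 (edgeR adjusted p = 0.003), Angptl8 at 1.75 (4.9e-04), Plin2 at 1.18 (7.9e-05) and Cpt1a at 0.92 (1.4e-05). Without them β-Mfn1/2DKO also exceeded β-Mfn2KO in Angptl4 by 2.17 (edgeR adjusted p = 0.011). Angptl8 then passed the threshold against β-Mfn1KO as well (edgeR adjusted p = 0.035), and the interaction of Plin2 was 0.86 (adjusted p = 0.073). Endothelial and β-cell markers thus moved with the 4 called genes, and their part in the result was not tested.

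Beyond the 9, the genes around them were read from 5 lists. Of 21 ANGPTL family members and lipase partners in the table, 4 had an adjusted p under 0.05 upward and 2 downward in β-Mfn1/2DKO against Ctrl (16.5% of all genes in either direction). Vldlr, a receptor for triglyceride-rich lipoproteins, rose from 5480 ± 544 to 8069 ± 893 normalized counts (log2 0.56, edgeR adjusted p = 2.2e-05). Sel1l, which serves the folding and export of lipoprotein lipase, rose by 0.41 (adjusted p = 0.0016). Angptl6 rose by 0.96 (adjusted p = 0.002). Angptl7 was lower (log2 -1.38, adjusted p = 0.0073), with 520 to 661 in β-Mfn1/2DKO inside a Ctrl range of 224 to 2876. Gpihbp1, named here after its values were seen, which holds the lipase on capillaries, was at 0.70 (adjusted p = 0.089).

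Among 25 genes of lipid droplets, lipases and triglyceride synthesis, 6 rose and 0 fell by adjusted p (9.59% and 6.86% of all genes), and 3 were called higher (3.24% of all genes): G0s2, Dgat2 and Hsd17b13. G0s2, an inhibitor of the droplet lipase Pnpla2, had the largest change. It ranged from 5.83 to 40.5 normalized counts in Ctrl, from 11.2 to 35.7 in β-Mfn1KO and from 2.69 to 29.6 in β-Mfn2KO. In β-Mfn1/2DKO it stood at 155, 148, 115, 176 and 124, above all other libraries (log2 3.10 ± 0.39 against Ctrl, edgeR adjusted p = 6.0e-06). Dgat2, which makes triglyceride, rose from 194 ± 58.5 to 378 ± 77.2 (log2 0.97, adjusted p = 4.0e-04). Abhd5, the co-activator of Pnpla2, rose by 0.52 (adjusted p = 8.3e-06), Agpat2 by 0.42 (5.0e-04) and Dgat1 by 0.26 (0.0096). The difference between the effects of losing Mfn1 without and with Mfn2 had an edgeR adjusted p under 0.05 (5.92% of all genes) for G0s2 (0.031), Abhd5 (0.038), Dgat2 (0.015) and Agpat2 (0.046). Hsd17b13, a droplet enzyme, had 155, 207 and 181 in β-Mfn1/2DKO replicates 1 to 3 but 438 and 985 in the acinar-rich replicates 4 and 5, and without these its log2 fold change of 2.01 became 0.92 (adjusted p = 0.099).

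Of 15 PPAR receptors, partners and cofactors, 5 rose and 0 fell by adjusted p, beside 9.59% and 6.86% of all genes. Pparg, the receptor of fat storage, was the one called, from 478 ± 93.1 to 778 ± 114 normalized counts (log2 0.70 ± 0.12, edgeR adjusted p = 2.9e-04). The cofactor Nrip1 rose by 0.44 (adjusted p = 8.6e-05), and Ncoa1 and Rxra by 0.20 and 0.22. Of 33 other PPAR targets in the table, 11 rose and 0 fell by adjusted p (the same shares of all genes apply). They included the β-oxidation enzymes Acaa2 (log2 0.65, adjusted p = 2.8e-04) and Eci2 (0.30, 6.9e-04), the carnitine carrier Slc25a20 (0.44, 0.0012), the acyl-CoA synthetase Acsl3 (0.43, 0.0013) and the thioesterase Acot2 (0.56, 0.0026). Acaa2, Fgf21 and Txnip were called, the last named after its values were seen. Fgf21, a secreted factor of acinar cells and liver, had 29.8, 20.7 and 25.0 in replicates 1 to 3 of the double knockout and at 150 and 232 in replicates 4 and 5, against 6.23 to 17.5 in Ctrl. Its log2 fold change of 2.90 became 1.08 without those replicates (edgeR adjusted p = 0.081).

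Among 12 paralogs of Pdk4, Cpt1a and Ucp2, 2 rose and 3 fell by adjusted p, where 9.59% of all genes rose and 6.86% fell. The pyruvate dehydrogenase phosphatases, which undo the work of Pdk4 and its kin, were lower: Pdp2 by 0.61 on the log2 scale in a fall from 734 ± 87.6 to 480 ± 32.4 normalized counts (edgeR adjusted p = 1.2e-05), and Pdp1 from 423 ± 65.9 to 321 ± 18.5 (log2 -0.40, adjusted p = 0.0042). The kinase Pdk1 rose by 0.36 (adjusted p = 0.0034). The mitochondrial carriers Slc25a30 and Slc25a14 were at 0.37 (adjusted p = 0.033) and -0.23 (adjusted p = 0.038). In neither single knockout did any gene of the 5 lists have an edgeR adjusted p under 0.05, where 0.0279% and 0.0559% of all genes had one. Fewer of all genes were called against Ctrl without β-Mfn1/2DKO replicates 4 and 5 or with depth class as a term. The shares of all genes given above do not apply to these fits. Counts by the full call rule follow in the order of the 5 lists, and the numbers of all genes called in these fits are given further on. Without those replicates they were 2 up and 1 down, 2 and 0, 1 and 0, 1 and 0, and 0 and 0. With depth class as a term they were 1, 0, 0, 1 and 0 up and 0 down. By adjusted p alone, Sel1l, Abhd5, Ncoa1 and Acsl3 stayed past the threshold with this term. Several that missed the threshold under this term had log2 fold changes near those without it, among them Dgat2 (1.04), Acaa2 (0.76), Acot2 (0.67), Slc25a20 (0.52), Eci2 (0.36) and Pdp2 (-0.51), while those of G0s2 (2.02), Hsd17b13 (0.93) and Dgat1 (0.09) were smaller.

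**Figure D5:**
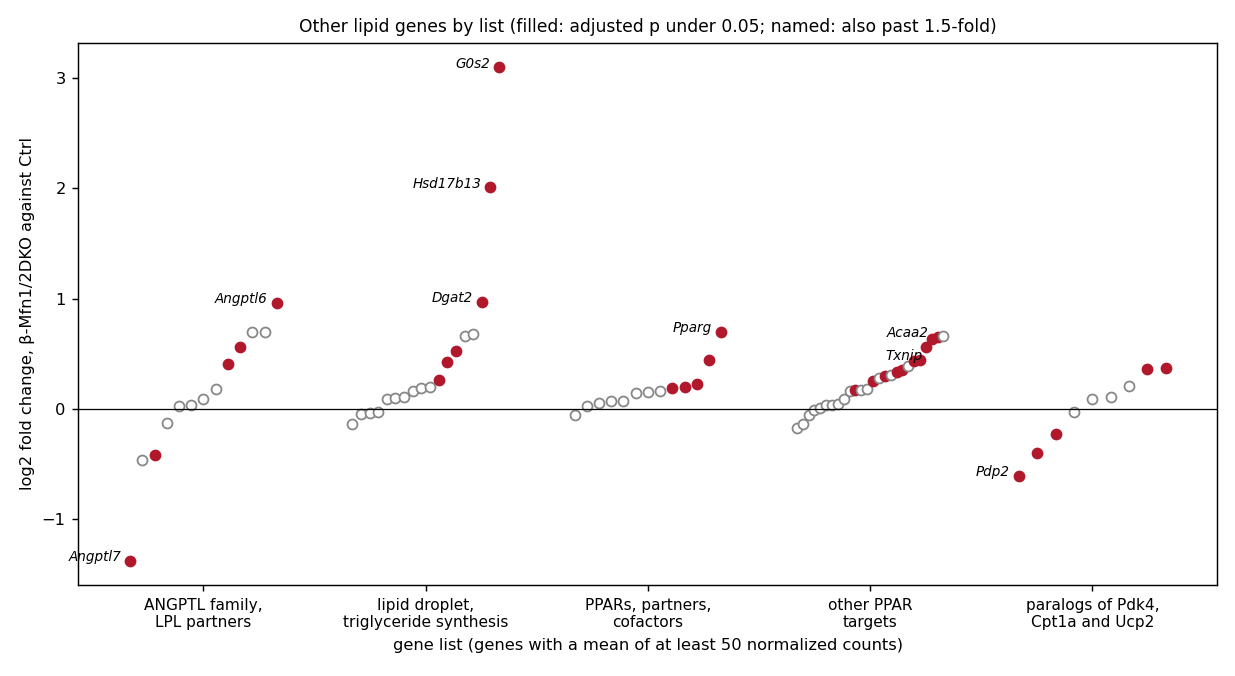
Difference between β-Mfn1/2DKO and Ctrl in log2 units (y axis) for the genes of the 5 lists (x axis) whose mean normalized count was 50 or more, filled where the edgeR adjusted p was under 0.05 and named where also past 1.5-fold. G0s2 at 3.10 and Hsd17b13 at 2.01 are the highest, and Angptl7 at -1.38 and Pdp2 at -0.61 the lowest of the named genes.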

How the data were processed

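RNA of 20 islet libraries was sequenced as paired-end reads. The authors trimmed reads with cutadapt 2.3, checked them with FastQC 0.11.8, aligned them to GRCm38 with STAR 2.6.1b and estimated gene counts with RSEM 1.3.1, as the submitters' processing notes and the methods name them. The expected counts deposited by the authors are whole numbers and carry no normalization. A depth-normalized signal, also deposited by the authors, came from DESeq2 and served only to recover its size factors. Columns not mapped to a sample numbered 0, and rows without a gene name 0.

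Counts of 28632 genes were tested in edgeR 4.0.16 (R 4.3.3) with TMM, estimateDisp, glmQLFit and glmQLFTest in 1 fit of 20 libraries, 1 coefficient per group, no covariate and no filter. Adjustment was by Benjamini-Hochberg over all genes. Standard errors came from the log2 fold change and the square root of its F statistic, and 95% intervals from these with the t distribution of the fit. Genes were matched by ID to GENCODE vM21 on GRCm38, where 71 had no symbol, and promoter sequences came from RefSeq. On simulated counts of 20 libraries and 28632 genes, genes changed in β-Mfn1/2DKO were drawn only from those with a mean above 1 CPM. Of these, 41 of 50 raised and 44 of 50 lowered by 1 on the log2 scale were recovered against Ctrl. All 50 and 50 were recovered at 2, and there were 3 false calls. Angptl4 in Ctrl, and Plin4 and Plin5 in every library, lay under 1 CPM, so these rates do not cover them. Libraries held 12400687 to 122947313 counts, and a count of 0 allows up to 3 counts.

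The 9 genes, the gene lists and the tests were chosen with earlier results of these data known. Named genes were the 9, up to 6 genes of each list with the smallest adjusted p in β-Mfn1/2DKO against Ctrl, the 3 genes most correlated with each of the 9, genes overlapping them, Mfn1 and Mfn2. The alternatives were DESeq2 1.42.0, other scalings, fits of only the groups compared, filterByExpr, and a term for acinar score, depth class, sex or replicate number, no fold limit, and each library left out. Added after the data were seen were the authors' factors, counts drawn down to the smallest library (seed 11), the fits without β-Mfn1/2DKO replicates 4 and 5 and without 3 macrophage-rich libraries, libraries of like depth, and each sex alone. Same-numbered libraries of Ctrl and β-Mfn1KO deviated together in all 4 pairs (r 0.15 to 0.55) and also share sex. The fold changes printed carry no replicate term, and the fit with it changed no call in β-Mfn1KO against Ctrl. What the number stands for is not given in the sources used here. Some genes that the rule names are not reported here. Figures were drawn with Matplotlib 3.10.9.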

Additional observations from a re-analysis of the deposited data

Results flagged for a closer look

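In β-Mfn2KO replicate 3 Cpt1a stood at 3214 normalized counts, far from the other 4 libraries of the group: its gap to the nearest took up 0.785 of the range of the group. Ucp2 stood at 13196 in the same library, with a gap of 0.733 of the range. These were 2 of 35 groups examined, and chance sets such a gap in about 1 in 20 groups.

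The difference between the effects of losing Mfn1 without and with Mfn2 passed the call rule for Cpt1a and Plin2, beside 2.74% of all genes. It was 1.09 ± 0.18 on the log2 scale for Cpt1a (edgeR adjusted p = 7.5e-04) and 0.95 ± 0.28 for Plin2 (adjusted p = 0.048). Plin2 lost the threshold when any of 12 single libraries was left out. Read depth moves with the double knockout and so with both differences.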

How the results depend on the processing

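The count of the 9 genes called in β-Mfn1/2DKO against Ctrl (4) was 1 with depth class as a term and 4 to 5 when each library was left out in turn. Against β-Mfn1KO (4) it was 2 with depth class as a term, 1 in male libraries, where the single β-Mfn1KO library is assumed to vary like the others, and 3 to 5 with each library left out. Against β-Mfn2KO (3) it was 2 to 4 throughout. The interaction count (2) was 1 with DESeq2 size factors, acinar score or depth class as a term, or without β-Mfn1/2DKO replicates 4 and 5 or the 3 macrophage-rich libraries, 0 in male libraries, and 1 to 2 with each library left out. The single knockouts kept 0 under every alternative. With the replicate block the counts were 0, 0, 4, 4, 4 and 2 for β-Mfn1KO, β-Mfn2KO and β-Mfn1/2DKO against Ctrl, β-Mfn1/2DKO against β-Mfn2KO and β-Mfn1KO, and the interaction. In β-Mfn1KO against Ctrl, where the numbers pair, Angptl8 was at 0.75 (edgeR adjusted p = 0.84) and Cpt1a at -0.24 (adjusted p = 0.88) with the block. Same-numbered libraries did not all have an r over 0.1 outside Ctrl and β-Mfn1KO (21 of 27 pairs in all). For Ctrl and β-Mfn1/2DKO 4 of 5 pairs did, with r from 0.09 to 0.38, so pairing there is not excluded. The mean r was 0.258 for same-numbered pairs and -0.057 for the others. Of 25 fold changes of the 9 genes under 879 alternatives, 764 kept their side of the threshold and direction, 68 lost and 46 gained it, and 1 turned: Ucp2 against β-Mfn2KO was -0.01 with the authors' normalization factors. Of 27 genes of the lists under 945 alternatives, 839 kept it, 106 lost it and 0 turned. Total-count scaling moved the median of all genes in β-Mfn1/2DKO against Ctrl from 0.06 to 0.19. All genes called there numbered 1491, 481 with depth class as a term, 1947 with total-count scaling, 956 without replicates 4 and 5 and 872 in males. The cause of these changes was not tested. Depth limits Plin4 and Plin5, with at most 27 reads in any library.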

Other observations

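For each of the 9 genes, genes of like pattern over the 20 libraries were sought among the 13492 genes whose mean normalized count was 50 or more, by Pearson's r of log2 CPM. The libraries share genotype, depth and acinar content, so the values are a description across libraries. Angptl4 was nearest to Adamts7 (0.91), Apln (0.90) and Hpcal1 (0.89), and Angptl8 to the cationic amino acid transporter Slc7a3 (0.91), Gm9794 (0.89) and Mrps18b (0.87). Plin2 was nearest to the kinase Prkcd (0.94), Prpsap1 and Kif1c (0.93 each), and Cpt1a to Rmnd5a, Klf11 and Aaed1 (0.96 each). Pdk4 went with Ndst4 (0.90) and Ankrd6 (0.88). Ucp2 was nearest to Prkd2 (0.91), Ctsf and Ctdsp2 (0.90 each), and Lpl to Epb41l4a (0.84), C130021I20Rik (0.80) and Cer1 (0.74). Plin4 was nearest to Nfil3 (0.80) and Plin5 to the ductal factor Sox9 (0.86), both on few reads.

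After subtraction of the group means the 9 genes did not vary as 1 block. The closest pair was Cpt1a and Ucp2 (r = 0.81), followed by Plin2 and Cpt1a (0.58). Both Cpt1a and Ucp2 stood far above the rest of their group in β-Mfn2KO replicate 3, and the part of that library in the r of 0.81 was not tested. The most negative pairs were Plin4 and Ucp2 (-0.69, Plin4 on few reads) and Angptl8 and Cpt1a (-0.59). Angptl4 went with Plin2 (0.55), Ucp2 (0.46) and Cpt1a (0.45) and against Lpl (-0.57) and Angptl8 (-0.43) across the 20 libraries. Its Ctrl values rest on 0 to 11 reads a library and, like those of Lpl, were split by sex.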
